A study of Mus musculus with 12 samples.

Results

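The genes described here are those of the solute carrier (Slc) families that gave a measurable signal in mouse heart, 135 of the 245 genes on the array whose symbol matches the Slc pattern. The members were chosen by 2 rules, the symbol and a mean signal of at least 17 over all 12 arrays, which is a measured value. By that minimum 107 matching genes were left out, and Slc2a1, Slc2a4 and Slc8a1 were left out by name. The 135 genes are part of the 8101 genes tested in this series, and counts below refer to these 135 and not to all 245. Just inside the minimum lay Slc1a4 at 17.11, Slc2a10 at 17.32 and Slc16a7 at 18.52, and just outside it lay Slc34a2 at 16.7, Slc14a2 at 16.07 and Slc22a12 at 14.2. Of the 135, 29 belong to the mitochondrial family Slc25 and 106 to other families. Slc4a1ap, Slc9a3r1 and Slc9a3r2 match by symbol although they encode adaptor or scaffold proteins, and none of them was called in any comparison by its brightest probe set. For Slc9a3r2, 2 of its dimmer probe sets were called lower over both times, at -0.42 and -0.34 on the log2 scale.

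The study asked how the response of the heart to infarction depends on the time of day. Hearts of C57Bl/6 mice were taken 8 h after the left anterior descending coronary artery was tied off, which produces a myocardial infarction (MI), or after a sham operation. There were 4 groups of 3 mice: wake MI, wake sham, sleep MI and sleep sham. The wake groups were operated on at ZT13 to ZT15 and collected at ZT23, and the sleep groups were operated on at ZT1 to ZT3 and collected at ZT11, where ZT is the zeitgeber time in hours of the light cycle. Operation time and collection time therefore change together and cannot be told apart. Per the labels the MI tissue came from infarcted myocardium, while no label used here gives the part of the sham heart that was sampled. All animals are of 1 strain, and every heart had been through surgery, so no unoperated heart stands behind any value.

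Solute carriers move ions, sugars, amino acids, vitamins, metals and metabolites across the plasma membrane and the membranes of organelles. The Slc25 family sits almost entirely in the inner mitochondrial membrane, where it exchanges ADP for ATP, imports phosphate and shuttles fatty acyl-carnitines, nucleotides and amino acids. The heart depends on these carriers because it makes nearly all its ATP in mitochondria, and after an infarct the tissue loses oxygen and substrate supply while inflammatory cells enter it.

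The promoters of 3 carriers described below are printed as examples, because they hold motifs of regulators known for stress, circadian or metal responses. Each line gives the 250 bases before a RefSeq transcription start, 5′ to 3′ on the gene's strand, on mouse build GRCm38.p6, with the motif in capitals. Slc25a25 is at chr2:32424067-32424316 on the minus strand, with the cAMP response element TGACGTCA beginning 150 bases before the start, which is 1 of 3 starts listed for the gene. Slc25a33 is at chr4:149774268-149774517 on the minus strand, with the E-box CACGTG, the sequence bound by CLOCK and BMAL1, beginning 8 bases before the start. Slc30a1 is at chr1:191906531-191906780 on the plus strand, with a metal response element core, TGCACNC or TGCGCNC, found on the opposite strand.
Slc25a25: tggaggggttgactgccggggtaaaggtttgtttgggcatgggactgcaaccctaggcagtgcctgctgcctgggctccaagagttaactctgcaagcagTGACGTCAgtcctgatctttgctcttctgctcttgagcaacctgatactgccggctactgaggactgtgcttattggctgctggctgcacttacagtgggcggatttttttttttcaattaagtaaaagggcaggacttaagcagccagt
Slc25a33: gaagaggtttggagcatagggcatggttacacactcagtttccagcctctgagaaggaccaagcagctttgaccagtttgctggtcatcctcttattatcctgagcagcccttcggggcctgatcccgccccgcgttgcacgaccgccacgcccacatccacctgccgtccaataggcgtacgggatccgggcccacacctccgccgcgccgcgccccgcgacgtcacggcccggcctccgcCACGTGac
Slc30a1: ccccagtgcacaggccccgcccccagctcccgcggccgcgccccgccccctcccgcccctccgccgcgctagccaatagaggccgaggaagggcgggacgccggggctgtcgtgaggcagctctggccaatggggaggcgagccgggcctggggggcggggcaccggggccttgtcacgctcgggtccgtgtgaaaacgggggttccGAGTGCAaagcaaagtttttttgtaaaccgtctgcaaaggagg
Searched on both strands, the cAMP element occurred in 1.55% of 32851 mouse promoters and in 2 of the 149 promoters of the 103 carriers that matched the promoter table. The E-box occurred in 6.02% of all promoters and in 20 of 149 carrier promoters, and the metal element in 21.4% of all promoters and in 49 of 149. The E-box contains the shorter hypoxia core ACGTG, so the same letters in the Slc25a33 promoter match both. A match describes the letters only, and a link between motifs and signals was not tested. Promoters of Slc20a1 and Slc35a5, not printed here, held both the E-box and the metal element. The Slc10a6 promoter held none of these 3 motifs in that window.

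The arrays gave 22690 probe sets with a MAS5 signal, a linear intensity scaled so that the 2% trimmed mean was 150.1 on every array. Array medians lay between 32.7 and 34.7. A sign of RNA integrity, the beta-actin 3′ signal divided by the 5′ signal, was 2.17 to 3.31 in wake MI hearts and 1.77 to 1.81 in wake sham hearts, and 2.09 to 2.92 in sleep MI hearts and 1.94 to 2.49 in sleep sham hearts. It separated the wake groups, so operation and this ratio move together there. It also separated wake sham from sleep sham hearts, so time of day and the ratio move together among sham hearts. The sum of 6 cardiomyocyte markers was 46100 to 55900 in wake MI hearts and 43800 to 48100 in wake sham hearts. It was 50000 to 55100 in sleep MI hearts and 41100 to 54000 in sleep sham hearts, and none of these markers was called. All 4 tested neutrophil markers were higher over both times in MI, with a summed signal of 879 to 1240 in wake MI and 129 to 521 in wake sham hearts, and 1040 to 1890 in sleep MI and 284 to 834 in sleep sham hearts. Of the 6 fibroblast markers 3 were lower over both times and 3 in wake MI hearts, and none was called in sleep hearts. Their sums were 4850 to 6430 in wake MI and 7160 to 9830 in wake sham hearts. In sleep hearts they overlapped, at 5870 to 7680 in MI and 6710 to 9160 in sham hearts. Of 4 atrial markers, 3 were lower in wake MI hearts, with sums of 998 to 1440 against 1720 to 14700 in wake sham hearts. None of the 4 was called over both times or in sleep hearts, with sums of 1820 to 2950 in sleep MI and 1670 to 4720 in sleep sham hearts. Macrophage markers summed to 2450 to 2920 in wake MI and 3390 to 5510 in wake sham hearts, and 3100 to 3310 in sleep MI and 3030 to 3640 in sleep sham hearts. Of the 6 macrophage markers 1 was lower over both times, 2 were lower in wake MI hearts and 1 was higher in wake than in sleep sham hearts. Of 6 endothelial markers 2 were higher and 1 was lower over both times, with sums of 1640 to 2420 in wake MI and 1810 to 2170 in wake sham hearts, and 1700 to 1880 in sleep MI and 1770 to 1960 in sleep sham hearts. The part that cell makeup, RNA integrity or the sampled region plays in the results below was not tested, and in whole tissue fewer cells of a type and less RNA per cell cannot be told apart.

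Over both times, 33 of the 135 carriers differed between MI and sham hearts at an adjusted p below 0.05 (limma, Benjamini-Hochberg over all 8101 genes), 22 higher and 11 lower in MI. That is 24.4% of the carriers against a background of 22.1% of all genes tested. The share higher in MI was 16.3% of carriers with a background of 8.49%, and the share lower was 8.15% with a background of 13.6%. The median log2 difference was 0.03 over the carriers and -0.06 over all genes. Of the 29 Slc25 carriers 1 was higher (3.45%) and 4 were lower (13.8%), and of the 106 other carriers 21 were higher (19.8%) and 7 were lower (6.6%). The Slc25 share lower is near the 13.6% of all genes, and the difference between the families was not tested. Slc1a1 reached the minimum of 17 through MI hearts alone and Slc25a14 through sham hearts alone, so the difference of each comes partly with the choice of members. With the beta-actin ratio in the model 13 carriers were called, and the share of all genes called was 8.3%. Of the 33 carriers 12 kept their call in that model: Slc10a6, Slc11a2, Slc20a1, Slc23a2, Slc25a25, Slc25a42, Slc2a3, Slc35a1, Slc35a5, Slc38a2, Slc3a2 and Slc7a6. The other 21 lost it, and Slc41a3 was the 1 carrier called in that model alone. All log2 differences are of signal plus 16, which understates the change of dim genes.

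**Figure D1:**
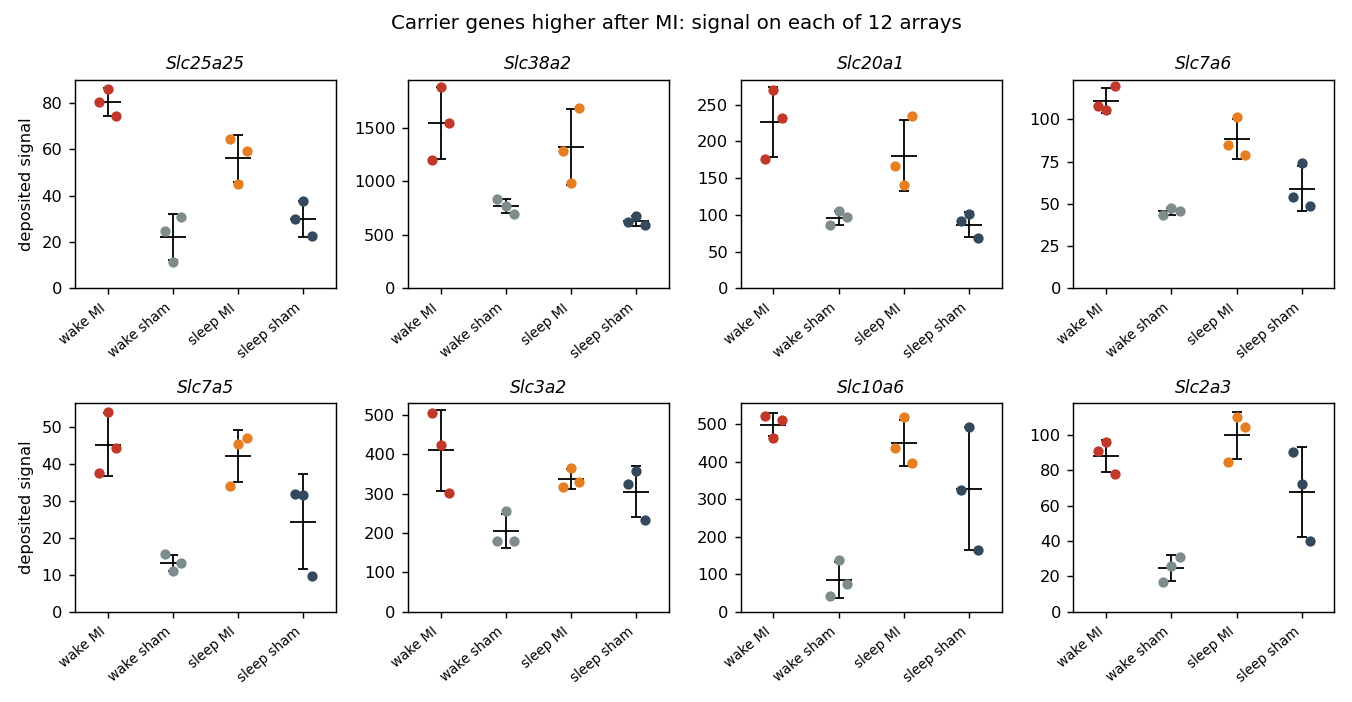
MAS5 signal (arbitrary units, linear axis from 0) of carriers higher in MI, by group from left to right wake MI, wake sham, sleep MI and sleep sham. Each point is 1 heart, and the line with whiskers is the group mean ± SD (n = 3). Slc38a2 and Slc20a1 lie above their sham hearts at both times, while Slc10a6, Slc2a3 and Slc7a5 have sleep sham hearts near or within the range of MI hearts.

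No family below was tested against the shares of all genes, which were 8.49% higher and 13.6% lower over both times. Of the 19 members of the amino acid carrier families 5 were higher (26.3%) and none lower over both times. The grouping goes by family number, so the 19 include Slc6a6, Slc6a8 and Slc43a3, which carry taurine, creatine and purine bases. They were Slc38a2, a sodium-coupled importer of neutral amino acids, Slc7a5, the exchanger LAT1 for large neutral amino acids, Slc7a6, an exchanger of the same family, Slc3a2, the heavy chain that brings Slc7a5 and Slc7a6 to the plasma membrane, and Slc1a1, a glutamate transporter. Slc1a1 was named only because the count is small, and its mean signal was 25.91 in MI hearts and 11.44 in sham hearts, the second under the minimum for members. Slc38a2 read 1204.45, 1886.07 and 1547.48 in wake MI hearts against 834.13, 773.57 and 698.09 in wake sham hearts. It read 1285.97, 986.32 and 1691.63 in sleep MI hearts against 618.02, 680.67 and 594.84 in sleep sham hearts. Every MI heart lay above every sham heart of its own time. The difference was 0.99 on the log2 scale (SE 0.13, 1.99-fold, adjusted p 0.000168) over both times, 0.97 in wake hearts (adjusted p 0.00302) and 1.02 in sleep hearts (adjusted p 0.00956). Its sleep call held when any 1 array was left out, and its wake call did not hold with the beta-actin covariate.

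Slc7a5, Slc7a6 and their heavy chain Slc3a2 differed more in wake hearts than in sleep hearts by size. Slc7a5 read 37.39, 54.05 and 44.12 in wake MI hearts against 15.54, 11.09 and 13.15 in wake sham hearts, without overlap. In sleep MI hearts it read 34.02, 45.31 and 47.03 against 31.94, 31.61 and 9.57 in sleep sham hearts, where the lowest sham heart stood far below the other two. Its log2 difference was 0.82 (SE 0.15, adjusted p 0.00232) over both times, 1.06 (SE 0.22, adjusted p 0.00527) in wake hearts and 0.58 (adjusted p 0.191) in sleep hearts. Slc3a2 read 503.74, 422.29 and 301.33 in wake MI hearts against 180.55, 254.51 and 180.93 in wake sham hearts, and 316.36, 365.18 and 328.23 in sleep MI hearts against 324.04, 357.36 and 231.96 in sleep sham hearts. The wake groups did not overlap and the sleep groups did, with log2 differences of 0.93 (SE 0.19, adjusted p 0.00541) in wake hearts and 0.16 (adjusted p 0.731) in sleep hearts. Slc7a6 read 107.91, 105.7 and 119.66 in wake MI hearts against 43.2, 47.38 and 45.88 in wake sham hearts. It read 84.61, 101.47 and 79.02 in sleep MI hearts against 54.14, 74.05 and 48.92 in sleep sham hearts, so that MI hearts were the higher at both times. Its log2 difference was 0.77 (SE 0.10, adjusted p 0.000152) over both times, and a second, dimmer probe set of the gene gave 0.24 (adjusted p 0.0989). The difference between the wake and the sleep effect was tested and did not pass for any of these genes.

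Of the 6 members of the sugar families 1 was called over both times (16.7%, against 22.1% of all genes). Slc2a3, the glucose transporter GLUT3 found in neurons and white blood cells, read 90.66, 95.76 and 78 in wake MI hearts against 16.8, 26.06 and 31.27 in wake sham hearts. In sleep MI hearts it read 84.64, 109.81 and 104.37 against 90.18, 72.23 and 40.12 in sleep sham hearts. The MI hearts of both times share a range, and all 3 wake sham hearts and 2 of the sleep sham hearts lie below it. The log2 difference was 0.94 (SE 0.15, adjusted p 0.000692) over both times, 1.37 (SE 0.21, adjusted p 0.00081) in wake hearts and 0.51 (adjusted p 0.227) in sleep hearts. A second probe set of Slc2a3 was called over both times too, at 0.64. Of the 4 monocarboxylate carriers 2 were higher (50%, against 8.49% of all genes). Slc16a6 was higher by 0.48 (adjusted p 0.0103) and is named only because the count is small. Slc16a1, the lactate and pyruvate transporter MCT1, was higher by 0.39 (adjusted p 0.0148). Slc16a1 read 2244.66, 2717.41 and 2684.19 in wake MI hearts against 2372.26, 1599.29 and 2136.12 in wake sham hearts, which overlap, and 2102.69, 1828.21 and 2271.53 in sleep MI hearts against 1698.72, 1431.85 and 1435.51 in sleep sham hearts, which do not. Neither of the 2 fatty acid carriers was called. Slc27a1, a fatty acid uptake protein, differed by 0.04 (adjusted p 0.839).

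Of the 6 members of the phosphate families 1 was called over both times, 16.7% against 22.1% of all genes. This was Slc20a1, the sodium-phosphate cotransporter PiT1 of the plasma membrane. It read 175.87, 270.32 and 232.34 in wake MI hearts against 86.43, 104.83 and 96.73 in wake sham hearts. It read 166, 141.25 and 234.56 in sleep MI hearts against 90.96, 100.61 and 67.74 in sleep sham hearts, again with no overlap. Its log2 difference of 1.01 (SE 0.13, 2.02-fold, adjusted p 0.000193) comprised 1.10 (adjusted p 0.00182) in wake hearts and 0.93 (adjusted p 0.0185) in sleep hearts. The sleep call was lost without sleep MI replicate 1 or 3 or sleep sham replicate 1 or 3, where the log2 difference stayed between 0.74 and 1.07. Slc10a6, a sodium-dependent carrier of sulfated steroids, had the highest difference of the 135. It read 522.63, 462.91 and 510.78 in wake MI hearts against 42.7, 138.36 and 75.59 in wake sham hearts. It read 436.13, 517.67 and 395.75 in sleep MI hearts against 325.85, 492.93 and 165.4 in sleep sham hearts. Wake MI hearts were 5.47-fold above wake sham hearts (log2 2.45, SE 0.33, adjusted p 0.000426), while the sleep groups overlapped (log2 0.55, SE 0.33, adjusted p 0.434). Among the 16 members grouped with ion carriers (13 without the 3 adaptor or scaffold genes) none was lower over both times. Only Slc12a4, a potassium-chloride cotransporter named because the count is small, was higher, at 0.32 (adjusted p 0.0195), 6.25% of the 16 against 8.49% of all genes. Several carriers known for the heart were not called: Slc6a6, the taurine transporter (0.14, adjusted p 0.425), Slc6a8, the creatine transporter (0.18, adjusted p 0.103), Slc22a5, the carnitine transporter (-0.20, adjusted p 0.14) and Slc12a2, the sodium-potassium-chloride cotransporter (0.19, adjusted p 0.206). Slc15a3, a proton-coupled carrier of histidine and peptides in endosomes and lysosomes, was higher by 0.61 (adjusted p 0.0146). Of the 21 carriers of other solutes, which include Slc10a6 and Slc15a3, 4 were higher and 1 was lower. Those shares are 19% higher and 4.76% lower, against 8.49% and 13.6% of all genes. The others, named because the counts are small, were Slc23a2, a vitamin C transporter, at 0.50 (adjusted p 0.0016), Slc19a2, a thiamine transporter, at 0.45 (adjusted p 0.0117), and Slc33a1, the acetyl-CoA transporter of the endoplasmic reticulum, at -0.30 (adjusted p 0.03), a call lost without any of 9 arrays (all but wake MI 3, sleep MI 1 and sleep sham 2).

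Of 24 metal carriers 7 were higher (29.2%, against 8.49% of all genes) and 3 lower (12.5%, against 13.6%) over both times. Zinc carriers stood on both sides. Slc39a14, which imports zinc and iron, was higher by 0.61 (SE 0.16, adjusted p 0.0167), with 369.1, 463.68 and 276.11 in wake MI against 210.4, 236.41 and 185.24 in wake sham hearts, and 293.8, 325.73 and 457.11 in sleep MI against 264.68, 336.99 and 168.37 in sleep sham hearts. The wake groups did not overlap and the sleep groups did. Slc30a4, a zinc carrier that loads vesicles, was higher by 0.66 (SE 0.15, adjusted p 0.00717). Slc30a1, the zinc exporter of the plasma membrane whose promoter is printed above, was higher by 0.51 (adjusted p 0.0197), a call lost without sleep sham replicate 1. It read 35, 47.51 and 67.28 in wake MI hearts against 29.52, 20.23 and 29.1 in wake sham hearts, and 39.33, 42.51 and 33.53 in sleep MI hearts against 17.55, 24.04 and 36.51 in sleep sham hearts. Slc30a6, a zinc carrier of the secretory pathway, was lower by 0.36 (log2 -0.36, adjusted p 0.0291), a call lost when any of 8 arrays was left out: wake MI 2 or 3, wake sham 1 or 3, sleep MI 1 or 2, or sleep sham 1 or 3. A copper carrier and the iron exporter were lower. Slc31a2, a copper transporter of internal membranes, read 97.52, 77.78 and 47.1 in wake MI hearts against 109.04, 101.33 and 121.71 in wake sham hearts. It read 65.29, 75.39 and 84.05 in sleep MI hearts against 135.69, 123.16 and 152.02 in sleep sham hearts. All MI hearts lay below the sham hearts of their time, with a log2 difference of -0.64 (SE 0.13, adjusted p 0.00314) over both times and -0.75 (adjusted p 0.0396) in sleep hearts, the second lost when any of 8 arrays was left out. Those were wake sham 1 or 3 and each of the sleep hearts. A second probe set of Slc31a2 was not called over both times in the limma fit of single probe sets (-0.41, adjusted p 0.0614). Slc40a1, the iron exporter ferroportin, was at -0.56 (adjusted p 0.0287), a call lost without wake MI 3, wake sham 1 or 2, sleep MI 1, or sleep sham 1 or 2. That call was also lost with the mean of the gene's probe sets. A second probe set of Slc40a1 was not called in the limma fit of single probe sets (-0.37, adjusted p 0.187). Slc11a2, an iron importer named only for its probe sets, differed in sign between them, at 0.35 (adjusted p 0.0244 in the gene fit) and -0.16. Its call was lost without wake sham 1 or sleep MI 1 or 2. Slc41a3, a magnesium carrier, was not called (0.27, adjusted p 0.209) except with the beta-actin covariate (0.58, adjusted p 0.04).

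Of the 8 carriers of nucleosides and nucleotide sugars 3 were lower (37.5%, against 13.6% of all genes) and none higher (against 8.49%) over both times. Slc35a5, of the nucleotide sugar transporter family, read 27.5, 47.73 and 27.56 in wake MI hearts against 61.58, 86.15 and 86.8 in wake sham hearts. It read 42.09, 55.59 and 43.85 in sleep MI hearts against 74.05, 97.94 and 96.3 in sleep sham hearts, so neither pair of groups overlapped. Its log2 difference was -0.83 (SE 0.12, adjusted p 0.000543) over both times, -0.92 (adjusted p 0.00363) in wake hearts and -0.74 (adjusted p 0.0405) in sleep hearts, the last lost without wake sham 3 or without any 1 of the sleep hearts. Slc35a1, which carries CMP-sialic acid into the Golgi, differed by -0.42 (SE 0.08, adjusted p 0.00281). Slc29a1, the equilibrative nucleoside transporter that takes up adenosine, differed by -0.40 (SE 0.10, adjusted p 0.00961), with 104.6, 83.51 and 101.83 in wake MI against 150.37, 122.88 and 154.97 in wake sham hearts, and 94.22, 99.05 and 69.19 in sleep MI against 111.01, 108.65 and 114.86 in sleep sham hearts. Its groups did not overlap at either time.

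**Figure D2:**
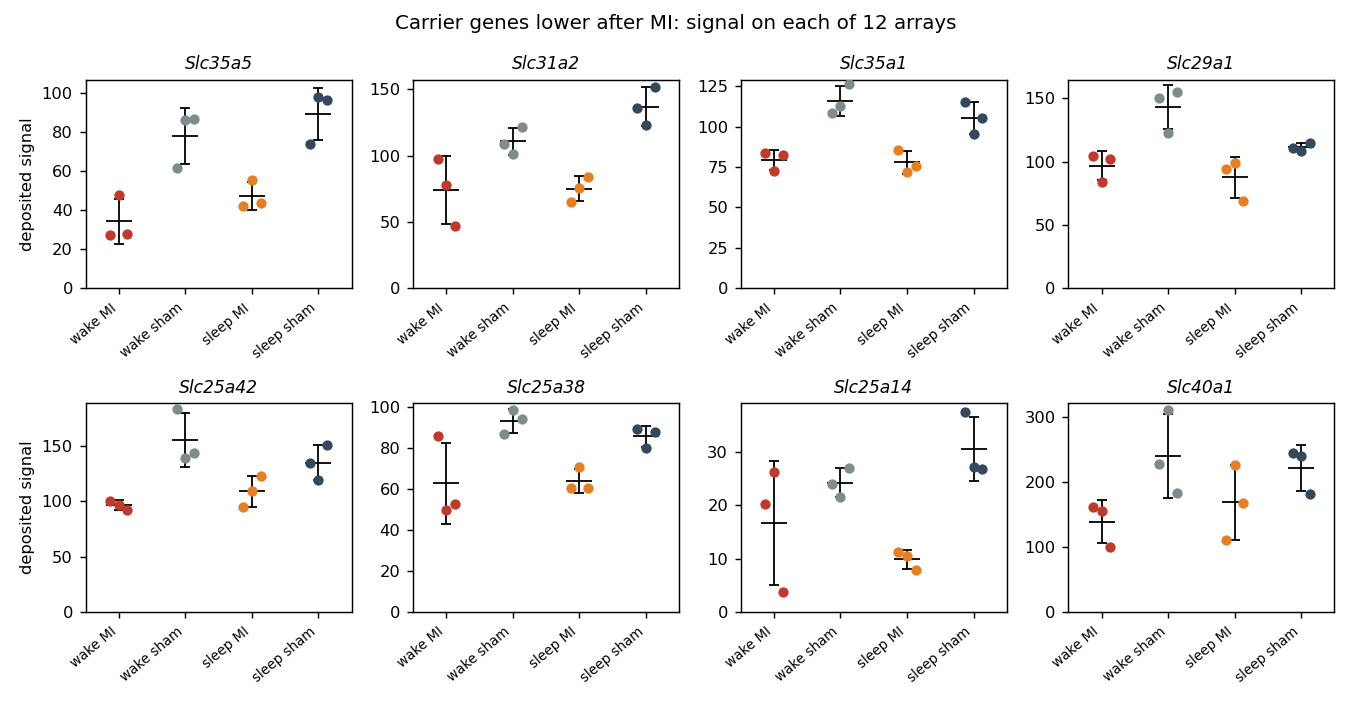
MAS5 signal (arbitrary units, linear axis from 0) of carriers lower in MI, by group from left to right wake MI, wake sham, sleep MI and sleep sham. Each point is 1 heart, and the line with whiskers is the group mean ± SD (n = 3). Slc35a5 and Slc29a1 lie below the sham hearts at both times.

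In the mitochondrial family the carriers of the main ATP pathway were not called. Slc25a4, the heart form of the ADP/ATP carrier, read 10966.0, 9066.5 and 10048.2 in wake MI hearts against 9206.37, 8344.65 and 8600.18 in wake sham hearts, and 9781.06, 10162.2 and 10814.6 in sleep MI hearts against 10578.4, 7467.76 and 10259.3 in sleep sham hearts. Both pairs of groups overlapped, with a log2 difference of 0.17 (adjusted p 0.178). Slc25a3, the phosphate carrier, was at 0.09 (adjusted p 0.51), Slc25a5, another ADP/ATP carrier, at 0.03 (adjusted p 0.846), Slc25a11, the oxoglutarate carrier, at -0.15 (adjusted p 0.308) and Slc25a37, the iron importer mitoferrin, at -0.04 (adjusted p 0.861). Slc25a20, which carries acylcarnitines inward, had a pair of probe sets at 0.00 and -0.24, neither called. Each of Slc25a3, Slc25a5, Slc25a11, Slc25a20, Slc25a37 and Slc27a1 changed sign in at least 1 alternative, so no direction is read from them.

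Slc25a25, a calcium-regulated carrier of ATP-magnesium and phosphate, was the mitochondrial carrier higher over both times. It read 80.5, 86.2 and 74.45 in wake MI hearts against 24.54, 11.39 and 30.93 in wake sham hearts. It read 64.52, 44.88 and 59.15 in sleep MI hearts against 29.85, 37.64 and 22.36 in sleep sham hearts. Each MI heart lay above each sham heart of its time. The log2 difference was 1.01 (SE 0.14, 2.01-fold, adjusted p 0.000257) over both times, 1.37 (SE 0.19, adjusted p 0.000529) in wake hearts and 0.66 (SE 0.19, adjusted p 0.0909) in sleep hearts. The 4 that were lower were Slc25a42, Slc25a38, Slc25a14 and Slc25a22. Slc25a42, the coenzyme A importer, read 100.53, 96.87 and 91.86 in wake MI hearts against 183.67, 138.86 and 143.85 in wake sham hearts, and 94.7, 109.39 and 122.76 in sleep MI hearts against 134.59, 118.77 and 150.98 in sleep sham hearts. The wake groups were apart and the sleep groups overlapped, with a log2 difference of -0.44 (SE 0.09, adjusted p 0.005). Slc25a38, the glycine importer used in haem synthesis, differed by -0.42 (adjusted p 0.0129), and Slc25a14, an uncoupling protein relative, by -0.60 (adjusted p 0.0168) at signals of 3.73 to 37.46. The mean of Slc25a14 was 13.31 in MI hearts, under the minimum for members, and 27.39 in sham hearts. Slc25a22, a glutamate carrier, differed by -0.30 (adjusted p 0.0412), a call lost without any of 8 arrays (all but wake MI 1 and 2, wake sham 2 and sleep MI 3). Slc25a29 and Slc25a26 were not called by their brightest probe sets and are named for their dimmer ones. In a limma fit of single probe sets, dimmer ones of Slc25a29 were called in the contrast over both times, at -0.41 (adjusted p 0.019) and -0.58 (adjusted p 0.0315). The second, with a mean signal of 28.8, was at 0.02 in wake hearts and -1.18 in sleep hearts, so its fall was in sleep hearts only. Its other dimmer probe sets, at -0.26 and -0.22 over both times, were not called. A dimmer one of Slc25a26 was at -0.32 (adjusted p 0.0236).

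**Figure D3:**
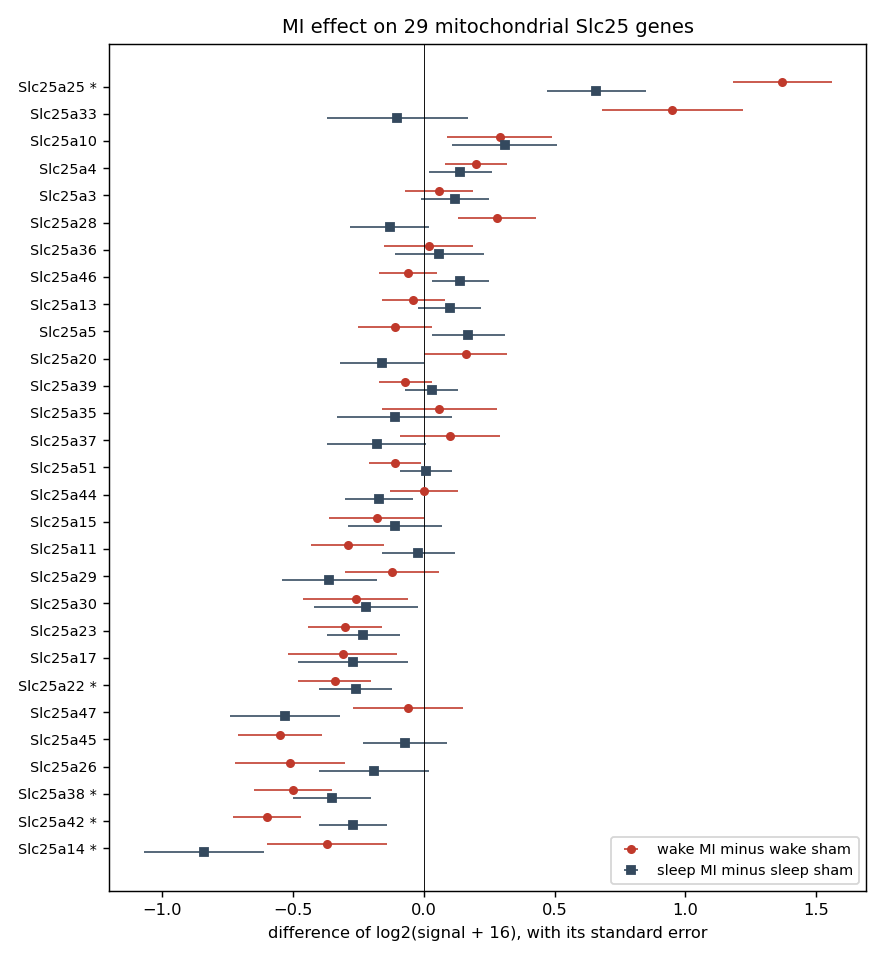
Log2 difference of MI minus sham signal for the 29 mitochondrial Slc25 carriers in wake and sleep hearts, with bars of 1 standard error and an asterisk for those called over both times. Slc25a25 stands at the positive end, 1.37 in wake and 0.66 in sleep hearts.

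At each time separately the counts differed. In wake hearts 27 of 135 carriers were called (18 higher, 9 lower), 20% against a background of 18.5%, with 13.3% higher against 7.79% of all genes and 6.67% lower against 10.7%. In sleep hearts 5 were called (2 higher, 3 lower), 3.7% against a background of 2.65%, where 1.68% of all genes were higher and 0.975% lower. The 5 were Slc38a2 and Slc20a1, higher, and Slc31a2, Slc35a5 and Slc43a3, lower. The wake count was 15 without wake sham 1 and 16 without wake sham 3, and it was 5 with the beta-actin covariate, where 3.38% of all genes were called and under which Slc10a6, Slc25a25, Slc2a3, Slc3a2 and Slc7a6 kept their wake calls. The sleep count was 1 without sleep MI 1, sleep MI 3, sleep sham 1 or sleep sham 3, and 3 without sleep MI 2 or wake sham 3. No share of all genes is given for these left-out arrays, so these counts do not tell carriers from other genes. The sleep calls of Slc31a2 and Slc35a5 were lost with the covariate. Counted by ranges, the wake MI hearts lay wholly apart from the wake sham hearts for 51 carriers, 37.8% against 35.1% of all genes. The sleep MI hearts lay apart from sleep sham hearts for 29 carriers, 21.5% against 23.5% of all genes. The sign was the same at both times for 90 of 135 carriers, 66.7%, and for 69.3% of all genes.

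Of the carriers called over both times, 21 were also called in wake hearts and 4 in sleep hearts. A further 6 were called in wake hearts and not over both times. They include Slc25a33, Slc45a3, Slc25a45 and Slc37a3 (the other two are Slc41a1 and Slc66a2, named because the count is small). Slc45a3, a sugar carrier family member, was at 0.77 (adjusted p 0.0363) in wake hearts, a call lost without wake MI 1 or wake sham 1 or 2. Slc25a45 was at -0.55 (adjusted p 0.0303) and Slc37a3, of the sugar phosphate family, at -0.50 (adjusted p 0.0253), each lost without wake MI 1 or 3 or wake sham 1 or 3.

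**Figure D4:**
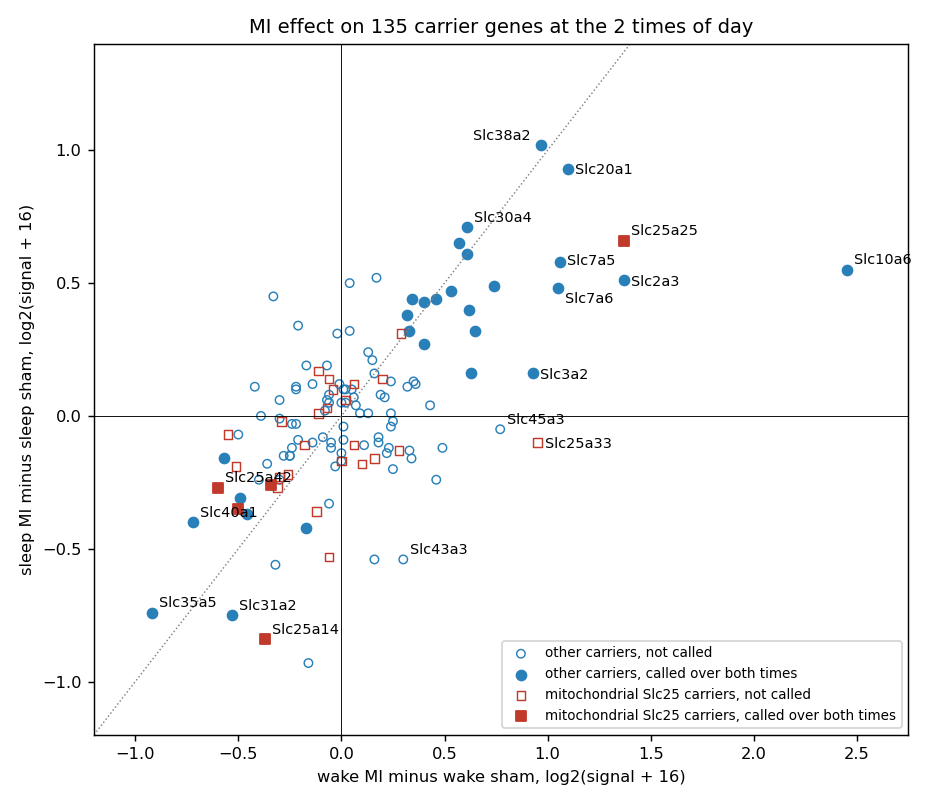
Log2 difference of MI minus sham signal in wake hearts (horizontal axis) against the same in sleep hearts (vertical axis) for the 135 carriers, with filled symbols for those called over both times. Slc10a6 lies farthest right at 2.45 with 0.55 in sleep hearts, and Slc38a2 and Slc20a1 lie near the diagonal.

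Whether the MI effect itself differed between wake and sleep hearts was tested for all genes with an interaction contrast. No carrier passed, and 0% of all genes did, while 15 carriers had an unadjusted p under 0.05, 11.1% against 10.5% of all genes. With array weights in limma, 1 carrier, Slc43a3, passed, and the share of all genes passing there is not given. Slc10a6 gave a difference of 1.90 (adjusted p 0.205), and it passed without wake sham 2 (2.26, adjusted p 0.0494) and without sleep sham 3 (2.3, adjusted p 0.0226). Slc43a3, a purine nucleobase transporter, gave 0.84 (SE 0.16, adjusted p 0.13), and passed without wake sham 2 (0.96, adjusted p 0.0134). It read 415.61, 370.68 and 428.5 in wake MI hearts against 291.36, 387.79 and 304.34 in wake sham hearts. It read 379.26, 419.6 and 396.16 in sleep MI hearts against 562.99, 609.41 and 586.47 in sleep sham hearts. The MI hearts of both times lay in 1 range while the sham hearts lay in separate ranges, with log2 differences of 0.30 (adjusted p 0.0796) in wake and -0.54 (SE 0.11, adjusted p 0.0221) in sleep hearts. The sleep call was lost without sleep MI 1 or 3 or without any 1 of the sleep sham hearts.

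Among sham hearts 4 carriers differed between wake and sleep, all lower in wake, 2.96% against a background of 1.52% of all genes, where 0.42% of all genes were higher and 1.1% lower. They were Slc10a6, Slc2a3, Slc43a3 and Slc25a33, each read from its brightest probe set. In a limma fit of single probe sets, a dimmer one of Slc2a3 was lower in wake too (-0.74, adjusted p 0.0453). A dimmer probe set of Slc25a36, named for this reason only, was higher in wake (0.76, adjusted p 0.0276). The brightest of Slc25a36 was not called (0.28, adjusted p 0.518). Slc25a33, a mitochondrial importer of pyrimidine nucleotides whose promoter with an E-box is printed above, read 400, 239.94 and 374.14 in wake MI hearts and 153.55, 186.97 and 152.76 in wake sham hearts. It read 727.69, 493.28 and 604.25 in sleep MI hearts and 394.2, 653.3 and 1027.39 in sleep sham hearts. Wake sham hearts were 3.67-fold below sleep sham hearts (log2 -1.87, SE 0.27, adjusted p 0.00383). Wake MI hearts were below sleep MI hearts as well, without overlap, at -0.83 (SE 0.27, adjusted p 0.598), which did not pass. Its MI effect was 0.95 (adjusted p 0.0273) in wake hearts, lost without wake MI 1 or 3 or wake sham 1 or 3, and -0.10 (adjusted p 0.9) in sleep hearts. Slc10a6 was at -1.75 (SE 0.33, adjusted p 0.0183) and Slc2a3 at -1 (SE 0.21, adjusted p 0.0274) between sham groups, and both calls were lost without wake sham 1, wake sham 3, sleep sham 1 or sleep sham 2. Slc43a3 was at -0.82 (SE 0.11, adjusted p 0.003), and its call and that of Slc25a33 held without each array. The count of 4 was 2 without wake sham 1 or 3 or sleep sham 1 or 2, for which no share of all genes is given. It was also 2 with the beta-actin covariate, which removed Slc10a6 and Slc2a3 and under which 0.506% of all genes were called. The beta-actin ratio itself differed between these sham groups without overlap. By ranges, wake sham hearts lay wholly apart from sleep sham hearts for 36 carriers, 26.7% against 20.1% of all genes, with 21 higher and 15 lower in wake. Since the same wake sham and sleep sham hearts are also the controls of the MI comparisons, their values enter the MI differences too. For these 4 genes the lower wake sham values enter the wake MI differences. The higher sleep sham values enter the sleep MI differences, including the sleep call of Slc43a3.

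**Figure D5:**
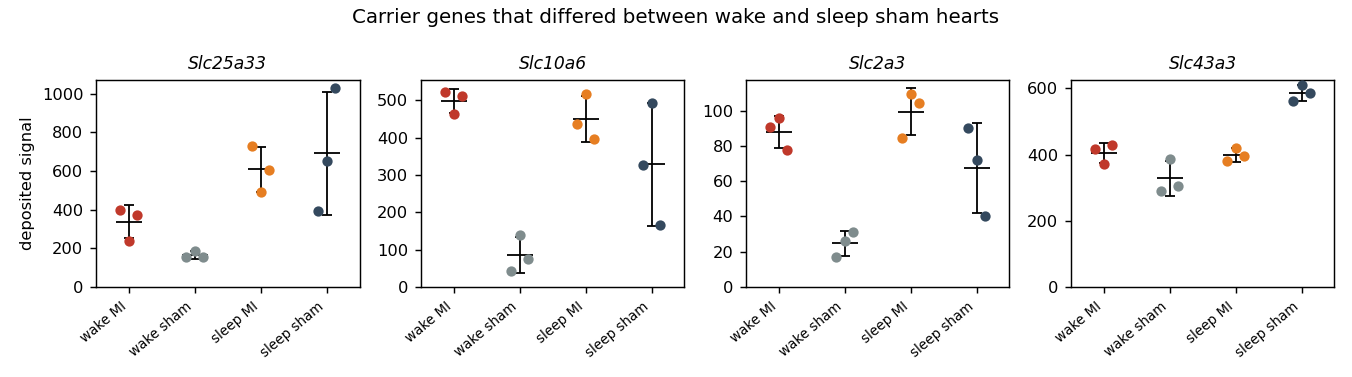
MAS5 signal (arbitrary units, linear axis from 0) of the 4 carriers called between wake and sleep sham hearts, by group from left to right wake MI, wake sham, sleep MI and sleep sham. Each point is 1 heart, and the line with whiskers is the group mean ± SD (n = 3). For Slc43a3 the sleep sham hearts at 562.99 to 609.41 stand above the other 3 groups.

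Among MI hearts no carrier differed between wake and sleep, against a background of 0.0741% of all genes, and 7 carriers had an unadjusted p under 0.05 (limma), 5.19% against 6.67% of all genes. With array weights the count was also 0. For the transport partners and relatives of these carriers, 22 of 33 listed genes were tested. Over both times 2 of the 22 were higher and 1 was lower, where 8.49% of all genes were higher and 13.6% lower. The called genes are named because the counts are small. Cd36, a fatty acid uptake protein, was higher by 0.25 over both times (adjusted p 0.0234) and Emb, a chaperone of monocarboxylate carriers, by 0.33 (adjusted p 0.0423). Sfxn1, a mitochondrial serine carrier outside the Slc symbols, was at -0.33 (adjusted p 0.0164). The median log2 difference of the 22 was -0.06, that of all genes.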

How the data were processed

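RNA of 12 mouse hearts was measured on Affymetrix arrays. The deposited values are MAS5 signal intensities on a linear scale, made by the authors with MAS5 per the submitters' processing notes, which name no version; depth does not apply, and 3 arrays per group limit the precision. Of 22690 probe sets, 20380 carried 1 gene symbol, 691 several, 1555 none and 64 were controls. A gene was read from its brightest probe set, and 8101 of 12393 genes passed the 40th percentile of mean log2(signal + 16). Values were then tested as log2(signal + 16) with limma 3.58.1 in R 4.3.3 (group means over all arrays, eBayes with a trend), adjusted over 8101 genes and called at 0.05. The exact permutation test of 3 against 3 cannot go below 0.1 and was not used. The code was tested on simulated data. Genes named are up to 10 called rises and 10 called falls of largest size in each comparison and a list of cardiac carriers. Genes named outside this rule are marked as such or come with the reason. Alternatives changed the pseudocount, level filter, scaling, probe set rule, variance trend, array weights, arrays in the fit, threshold, replicate block and beta-actin covariate, and left out each array in turn. The members and lists were chosen with earlier results of these data known. The labels number the hearts as biological replicates and do not say whether the numbers pair them. Of 18 same-numbered pairs of hearts, 5 had correlated deviations over 0.1 (range -0.175 to 0.251). Of 36 differently numbered pairs, 9 did (range -0.196 to 0.283). Deviations of 3 arrays from their group mean cannot exclude a pairing, and the main fit used none. Python 3.11.15 was used for tables and figures.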

Additional observations from a re-analysis of the deposited data

Results flagged for a closer look

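For 3 carriers all wake MI hearts lay above all sleep MI hearts while all wake sham hearts lay below all sleep sham hearts, and the interaction contrast in limma, adjusted over 8101 genes, tested the difference. Slc7a6, an amino acid exchanger, gave an MI effect that was 0.56 on the log2 scale larger in wake than in sleep hearts (SE 0.19, adjusted p 0.327). Slc44a2, a choline transporter-like protein, gave 0.5 (SE 0.2, adjusted p 0.406), with 347.72, 344.52 and 359.55 in wake MI hearts against 276.08, 247.54 and 297.94 in wake sham hearts, and 343.46, 315.57 and 276.79 in sleep MI hearts against 311.37, 447.47 and 302.24 in sleep sham hearts. Slc66a2 gave 0.39 (SE 0.17, adjusted p 0.453). None of the 3 differences passed the test, and how many of all genes show this crossing was not counted. Gaps could be small, as for Slc44a2, where the lowest wake MI heart read 344.52 and the highest sleep MI heart 343.46. These carriers were picked for this crossing pattern after their values were seen, and other carriers with larger differences, Slc10a6 at 1.90 and Slc43a3 at 0.84, did not show it.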

How the results depend on the processing

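The main counts of carriers called were 33 over both times, 27 in wake, 5 in sleep, 4 between sham groups and 0 for the other 2 comparisons. At an adjusted p below 0.01 they were 15, 10, 1 and 2. Where no share of all genes stands beside a count in this section, the count does not tell carriers from other genes. With the beta-actin ratio added to the model they were 13, 5, 3 and 2, with 8.3%, 3.38%, 2.12% and 0.506% of all genes called. A filter at the 60th percentile left 78 carriers and called 21 over both times, 26.9% of them against 24.7% of all genes. No filter gave 3 in sleep, only the groups compared gave 2 between sham groups, and array weights gave 8 in sleep, 7 between sham groups and 1 for the difference of the effects. Leaving out each array gave 26 to 33 over both times, 15 to 28 in wake, 1 to 7 in sleep, 2 to 6 between sham groups and 0 to 2 for the difference. Of the 23 calls over both times that the naming rule covers, 10 held in every setting at a 0.05 threshold, 4 were lost without an array and 13 with the covariate (9 and 21 of all 33). A fit with the replicate block called 31, 26, 4 and 4, and named calls lost with it were Slc25a22 over both times, Slc45a3 in wake and Slc31a2 in sleep. Some uncalled carriers changed sign over both times: Slc25a3 was -0.01 with quantile normalization, Slc25a11 0.05 with the covariate and Slc25a20 0.02 with median centring. Leaving out each array gave -0.03 to 0.08 for Slc25a5, -0.08 to 0.08 for Slc25a20, -0.14 to 0.04 for Slc25a37 and -0.03 to 0.12 for Slc27a1. The causes were not tested. The beta-actin ratio and the operation move together in wake hearts, and the ratio also separates wake sham from sleep sham hearts. Slc25a14 was read at signals of 3.73 to 37.46, near the pseudocount of 16.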
